A study of Mus musculus with 4 samples.

Results

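The acrosome genes of the mouse testis were compared between *Ccnyl1*-/- and WT mice. The set held 10 genes, *Dpy19l2*, *Gopc*, *Spaca1*, *Zpbp*, *Zpbp2*, *Acr*, *Acrbp*, *Acrv1*, *Spam1* and *Spaca3*. A probe set was a member when the annotation of the array paired it with exactly 1 gene and that gene was in the set. This gave 16 probe sets out of 45037 on the array, and 10 genes out of 18193. The mutants were 2 mice homozygous for the *Ccnyl1* KO-first allele, and the controls were 2 WT mice. In the KO-first allele a LacZ cassette with a stop codon and a polyA signal interrupts the gene in every cell of the animal, so that no cell type of the testis was targeted by itself, and all mutants carry the 1 allele. All 4 mice were C57BL/6 males of 2 months without any treatment. RNA of the whole testis was hybridised to 1 Affymetrix Mouse Genome array for each mouse.

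The acrosome is a flat vesicle that caps the nucleus of the sperm head. It is built in round spermatids from vesicles of the Golgi, fastened to the nuclear envelope and spread over the nucleus, and it holds the enzymes and binding proteins that a sperm cell uses at the coat of the egg. Mice that lack *Dpy19l2*, *Gopc* or *Spaca1* make round-headed sperm with a missing or broken acrosome. The comparison asked whether the loss of CCNYL1, the cyclin that partners the kinase CDK16 in the testis, went along with a different level of the transcripts of this organelle.

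None of the acrosome genes differed between the genotypes past the test. The signal of a probe set is a MAS 5.0 intensity on a linear scale, and log2(signal + 16) was compared with limma over all 32438 probe sets with a mean signal of at least 32. An adjusted p under 0.05 (Benjamini-Hochberg) was a call. Of the 16 probe sets 15 were bright enough to be tested, and 0 of 15 were called, where 0.0123% of all tested probe sets were. At an unadjusted p under 0.05 from limma there was 1 of 15, *Dpy19l2*, with 6.05% over all probe sets. On their brightest probe set the 10 genes lay between 91.7% of the WT mean for *Acr* and 115% for *Dpy19l2*. The log2 fold change was above 0 for 5 of them and below 0 for the other 5, and its median was -0.00078. Over all 15268 genes tested the median was -0.00036. The array did register the mutation. *Ccnyl1* had signals of 921 and 969 in *Ccnyl1*-/- testes and 2256 and 2425 in WT testes, or 40.4% of the WT mean. Its log2 fold change was -1.29 with a standard error of 0.089 and passed in limma (adjusted p = 0.00463). The sources used here do not say on which side of the cassette the probe set lies.

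**Figure D1:**
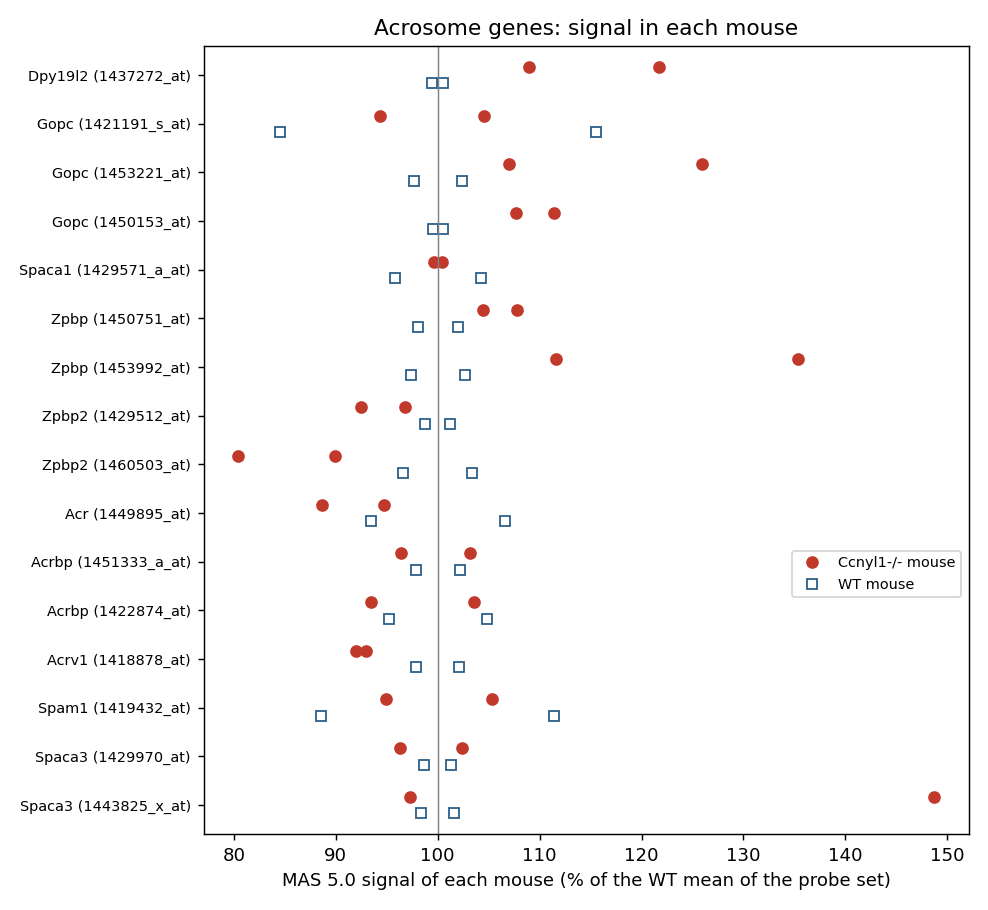
Signal of each mouse as a percent of the WT mean of the probe set (x axis) for the 16 probe sets of the acrosome genes (rows), with filled circles for *Ccnyl1*-/- and open squares for WT mice. The mice of the genotypes interleave for *Spaca1*, *Acr*, *Acrbp*, *Spam1* and *Spaca3*, and stand apart for *Dpy19l2*, *Zpbp*, *Zpbp2* and *Acrv1*.

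The promoters of the set are shown first, since the acrosome is built in spermatids, where the activator CREM binds cAMP response elements. Which cells of the testis use each of these genes was not measured here. RefSeq promoter windows of GRCm38.p6, which run from 250 bases before to 50 bases after a transcript start, were found for 9 of the 10 genes, 11 windows in all. TGACG, the half-site of a cAMP response element, was searched on both strands (CGTCA on the other). It was present in 6 of the 9 genes, *Acrbp*, *Dpy19l2*, *Gopc*, *Spaca1*, *Spaca3* and *Zpbp2*, and in 8 of the 11 windows, of which *Spaca1* and *Spaca3* have overlapping pairs. Of all 32851 windows 20.8% hold it, and of all 27025 genes 23.0% do in at least 1 window. The whole palindrome TGACGTCA, which contains the half-site, was in 0 of the 9 genes (2.03% of all genes). GTTGCC, a part of the X-box that RFX factors bind, was in *Acrbp* alone (14.1% of all genes), and TATAAA was in 0 of the 9 (15.7%). A match of letters is a description of the window and does not show that a factor binds there. 5 windows are printed in lower case on the strand of the gene, 4 with the half-site in capitals and that of *Acrv1* as one without it.
*Acrbp*, chr6:125049677-125049976, plus strand: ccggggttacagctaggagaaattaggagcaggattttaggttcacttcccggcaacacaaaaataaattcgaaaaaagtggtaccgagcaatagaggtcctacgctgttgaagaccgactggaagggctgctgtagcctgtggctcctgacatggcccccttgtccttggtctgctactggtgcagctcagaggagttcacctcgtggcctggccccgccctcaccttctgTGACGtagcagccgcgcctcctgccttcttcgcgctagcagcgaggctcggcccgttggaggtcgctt
*Spaca1*, chr4:34050016-34050315, minus strand: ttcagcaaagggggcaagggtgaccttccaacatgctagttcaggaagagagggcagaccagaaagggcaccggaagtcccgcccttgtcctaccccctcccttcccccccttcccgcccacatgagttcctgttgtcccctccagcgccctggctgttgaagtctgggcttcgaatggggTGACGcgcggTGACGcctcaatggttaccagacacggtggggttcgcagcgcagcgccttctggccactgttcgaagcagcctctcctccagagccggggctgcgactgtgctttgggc
*Spaca3*, chr11:80858113-80858412, plus strand: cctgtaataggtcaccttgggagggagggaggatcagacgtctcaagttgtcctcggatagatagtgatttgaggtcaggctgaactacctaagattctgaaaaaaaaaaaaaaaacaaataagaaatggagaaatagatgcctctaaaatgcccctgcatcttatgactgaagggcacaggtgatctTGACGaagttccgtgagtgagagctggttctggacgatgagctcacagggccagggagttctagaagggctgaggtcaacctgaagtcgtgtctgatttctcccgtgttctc
*Zpbp2*, chr11:98550847-98551146, plus strand: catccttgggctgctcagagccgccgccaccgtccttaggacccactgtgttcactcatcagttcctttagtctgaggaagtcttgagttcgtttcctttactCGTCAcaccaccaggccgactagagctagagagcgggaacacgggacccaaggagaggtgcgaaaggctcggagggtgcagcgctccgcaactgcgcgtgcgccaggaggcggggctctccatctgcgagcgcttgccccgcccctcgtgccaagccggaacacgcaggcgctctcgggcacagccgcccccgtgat
*Acrv1*, chr9:36692970-36693269, plus strand: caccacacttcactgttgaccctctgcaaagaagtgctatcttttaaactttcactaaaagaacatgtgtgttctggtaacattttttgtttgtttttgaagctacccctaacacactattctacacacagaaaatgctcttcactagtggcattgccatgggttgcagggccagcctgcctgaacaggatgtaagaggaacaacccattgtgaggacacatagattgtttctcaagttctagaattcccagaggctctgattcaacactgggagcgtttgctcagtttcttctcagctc
Counted from the transcript start, the first base of the half-site lay at -18 in *Acrbp*, at -69 and -59 in *Spaca1*, at -62 in *Spaca3* and at -147 in *Zpbp2*. Genes with and without it were found on both sides of the WT level: of those printed, *Zpbp2* and *Acrv1* had the lowest log2 fold changes, and *Spaca1*, with a pair of half-sites, had 0.0022.

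Among the genes that build and fasten the acrosome, *Dpy19l2* stood highest over WT. Its protein sits in the inner nuclear membrane and holds the acrosome to the nucleus. The signals of its only probe set were 4462 and 4981 in *Ccnyl1*-/- testes and 4072 and 4115 in WT testes. Both mutant mice were above both WT mice, and the gap between the mutants was wider than that between the WT mice. The means were 4722 ± 367 in *Ccnyl1*-/- and 4094 ± 30.1 in WT testes (SD, n = 2 each). The log2 fold change of 0.20 had a standard error of 0.071 and a 95% interval from 0.040 to 0.37, which did not pass after adjustment over all probe sets (adjusted p = 0.780 from limma). Without *Ccnyl1*-/- replicate 2, the higher of the mutants, the log2 fold change was 0.12, and without replicate 1 it was 0.28.

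*Gopc* encodes a PDZ protein of the Golgi that is needed for the fusion of Golgi vesicles into the acrosome, and 3 probe sets read it. The brightest, 1421191_s_at, had signals of 478 and 431 in *Ccnyl1*-/- and of 386 and 528 in WT testes. The mutants lay between the WT mice, and the log2 fold change was 0.0067 with a 95% interval from -0.38 to 0.39. Its sign depended on the WT mice, as it was -0.21 without WT replicate 1 and 0.22 without WT replicate 2. The probe set 1453221_at had 243 and 286 in *Ccnyl1*-/- and 233 and 222 in WT testes, a log2 fold change of 0.20 with an interval from -0.17 to 0.58. The dimmest, 1450153_at, had 194 and 201 in *Ccnyl1*-/- and 180 and 181 in WT testes, a log2 fold change of 0.12 with an interval from -0.27 to 0.51. On both of these dimmer probe sets the mutants were above the WT mice, and none of the 3 passed (adjusted p from 0.885 to 0.998 from limma). The methods' t-test put 1450153_at at an unadjusted p under 0.05, as 1 of the 15 acrosome probe sets and 5.86% of all, and after adjustment it called 0 of 15.

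*Spaca1* encodes a protein of the acrosomal membrane that acts early in the shaping of the vesicle. It had 9642 and 9713 in *Ccnyl1*-/- and 10080 and 9262 in WT testes, so that the mutants fell within the WT range. The log2 fold change was 0.0022 with a 95% interval from -0.13 to 0.13.

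The zona pellucida binding proteins ZPBP and ZPBP2 are paralogs that lie in the acrosomal matrix, and sperm of mice without *Zpbp* have a deformed head. They stood on opposite sides of WT. *Zpbp* had 11183 and 11546 in *Ccnyl1*-/- and 10917 and 10499 in WT testes. Its mutants were above both WT mice, by a log2 fold change of 0.086 with an interval from -0.026 to 0.20 (adjusted p = 0.846 from limma). *Zpbp2* had 8603 and 8221 in *Ccnyl1*-/- and 8993 and 8780 in WT testes. Here both mutants were below, by a log2 fold change of -0.079 with an interval from -0.20 to 0.040 (adjusted p = 0.861 from limma). Whether the 2 paralogs differ from each other in their response was not tested. Each has a second, dim probe set. That of *Zpbp*, 1453992_at, had 52.5 and 43.2 in *Ccnyl1*-/- and 39.8 and 37.7 in WT testes, and its log2 fold change of 0.22 had an interval from -0.62 to 1.06. That of *Zpbp2*, 1460503_at, had 27.2 and 30.4 in *Ccnyl1*-/- and 34.9 and 32.7 in WT testes. Its mean of 31.3 was under the minimum signal, and it was the 1 probe set of the 16 that was not tested; in a fit with no minimum signal its log2 fold change was -0.15 (adjusted p = 0.970 from limma). Both dim probe sets had the sign of the bright one of their gene, with intervals that held 0.

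**Figure D2:**
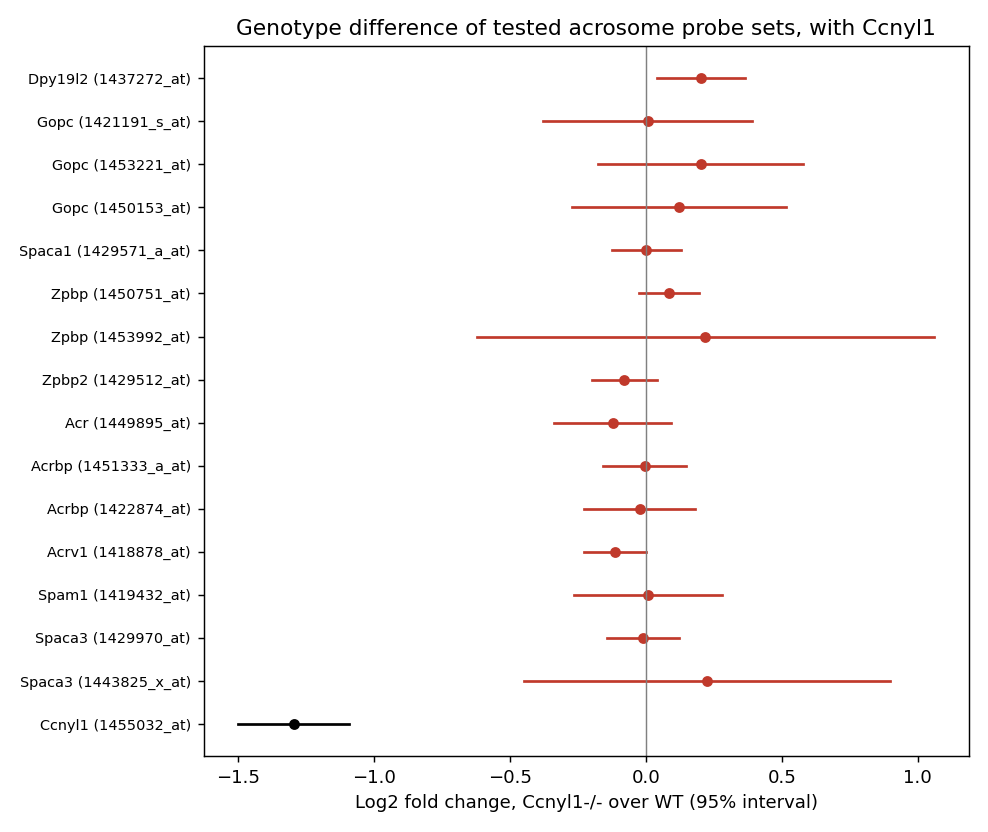
Log2 fold change of *Ccnyl1*-/- over WT (x axis, points) with its 95% interval (lines) for the 15 tested acrosome probe sets and for *Ccnyl1* (rows). All intervals of the acrosome genes but that of *Dpy19l2* hold 0, and the interval of *Ccnyl1* runs from -1.50 to -1.09.

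Of the genes for the contents of the acrosome, *Acr* and *Acrv1* had the lowest values. *Acr* encodes acrosin, the serine protease that is stored as proacrosin. It had 1673 and 1789 in *Ccnyl1*-/- and 1764 and 2012 in WT testes, where the genotypes overlapped. The log2 fold change was -0.12 with a 95% interval from -0.34 to 0.093 (adjusted p = 0.878 from limma). It leaned on WT replicate 2, without which it was -0.028, and without WT replicate 1 it was -0.22.

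*Acrv1* encodes SP-10, a protein of the acrosomal matrix made in round spermatids. It had 9162 and 9267 in *Ccnyl1*-/- and 10171 and 9753 in WT testes, means of 9214 ± 74.0 in *Ccnyl1*-/- and 9962 ± 295 in WT testes (SD, n = 2 each). The mutants were close to each other and below both WT mice. The log2 fold change of -0.11 had an interval from -0.23 to 0.0017 (adjusted p = 0.820 from limma), and with 1 mouse left out it ran from -0.14 to -0.082.

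*Acrbp* encodes the protein that binds proacrosin and keeps it packed in the granule. Its brighter probe set, 1451333_a_at, had 3993 and 4271 in *Ccnyl1*-/- and 4052 and 4231 in WT testes. The other, 1422874_at, had 2279 and 2058 in *Ccnyl1*-/- and 2096 and 2307 in WT testes. The genotypes overlapped on both, with log2 fold changes of -0.0037 (interval from -0.16 to 0.15) and -0.022 (interval from -0.23 to 0.18). Another probe set, 1460728_s_at, is paired with both *Acrbp* and *Ing4* and was therefore no member. It had 277 and 287 in *Ccnyl1*-/- and 230 and 253 in WT testes, which gave 0.21 as the log2 fold change (adjusted p = 0.874, limma). Which of the 2 genes it read cannot be told.

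*Spam1* encodes the hyaluronidase PH-20 of the sperm surface and inner acrosomal membrane. It had 1638 and 1818 in *Ccnyl1*-/- and 1922 and 1528 in WT testes. The WT mice were farther apart than the mutants and enclosed them, and the log2 fold change was 0.0097 with an interval from -0.26 to 0.28. *Spaca3* encodes a lysozyme-like protein of the acrosomal matrix. Its bright probe set had 6815 and 6410 in *Ccnyl1*-/- and 6741 and 6568 in WT testes, a log2 fold change of -0.0096 with an interval from -0.14 to 0.12. Its dim one, 1443825_x_at, had 103 and 67.4 in *Ccnyl1*-/- and 70.4 and 68.2 in WT testes, so that 1 mutant alone stood out. The log2 fold change there was 0.22 with all mice and -0.032 without *Ccnyl1*-/- replicate 1.

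The intervals set how large a difference these data leave room for. For 13 of the 15 tested probe sets the whole 95% interval lay within 1.5-fold of WT in either direction, and for 14 within 2-fold, where 46.8% and 75.8% of all probe sets did. The 2 that reached beyond 1.5-fold were the dim ones of *Zpbp* and *Spaca3*. The distance from the estimate to the end of its interval ran from 0.11 for the bright *Zpbp* probe set to 0.84 for the dim one. For 9 of the 15 the gap between mice of a genotype was larger than the log2 fold change itself. The genotypes were fully apart at 7 of the 15 (46.7%), against 35.9% of all probe sets. These were 5 with the mutants higher (20.6% of all), namely *Dpy19l2*, both dim probe sets of *Gopc* and both of *Zpbp*, and 2 with the mutants lower (15.3% of all), *Zpbp2* and *Acrv1*. The precision is limited by the 2 arrays of each genotype, and fewer spermatids cannot be told apart from less RNA per spermatid in RNA of a whole testis.

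**Figure D3:**
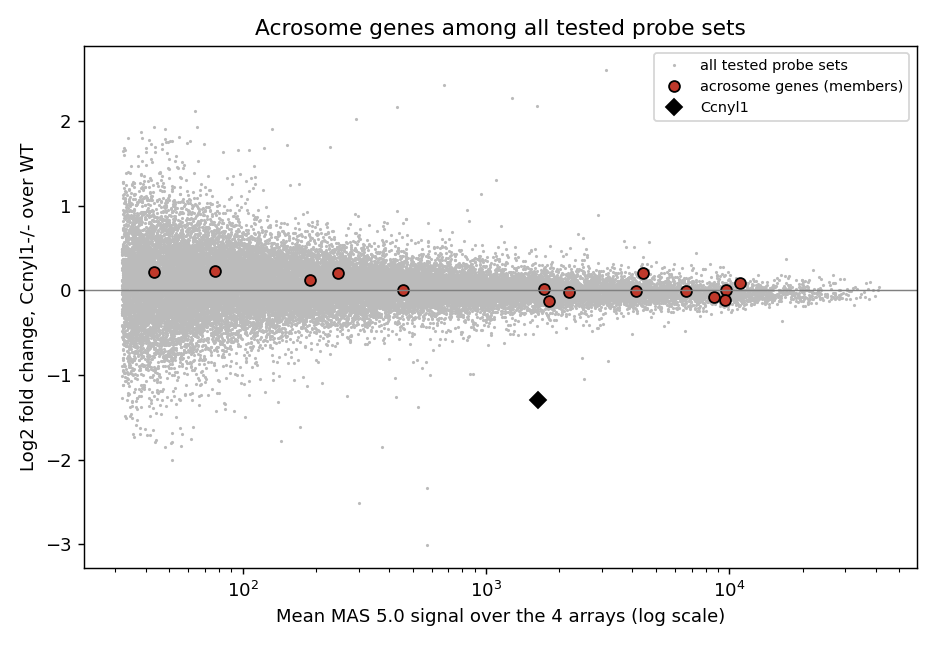
Log2 fold change of *Ccnyl1*-/- over WT (y axis) against the mean signal over the 4 arrays (x axis, log scale) for all 32438 tested probe sets (grey), the 15 of the acrosome genes (circles) and *Ccnyl1* (diamond). The acrosome genes lie between -0.12 and 0.22, and the spread of all probe sets narrows as the signal grows.

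Each mouse was left out in turn to see how far the values rest on it. Such a fit has 1 array in a genotype and takes its spread between mice from the 2 of the other genotype alone, so that its calls say nothing about stability, and the values are given with no test. Of the 10 brightest probe sets, those of *Dpy19l2* and *Zpbp* stayed positive and those of *Zpbp2*, *Acr* and *Acrv1* stayed negative each time. For all of these but *Acr* the genotypes do not overlap, so that leaving out 1 mouse could not turn the sign. Those of *Gopc*, *Spaca1*, *Acrbp*, *Spam1* and *Spaca3* had both signs. The widest ranges were those of *Gopc*, from -0.21 to 0.22, and of *Spam1*, from -0.15 to 0.17. Without *Ccnyl1*-/- replicate 2, *Zpbp2* had -0.047 and the probe set 1453221_at of *Gopc* had 0.092.

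**Figure D4:**
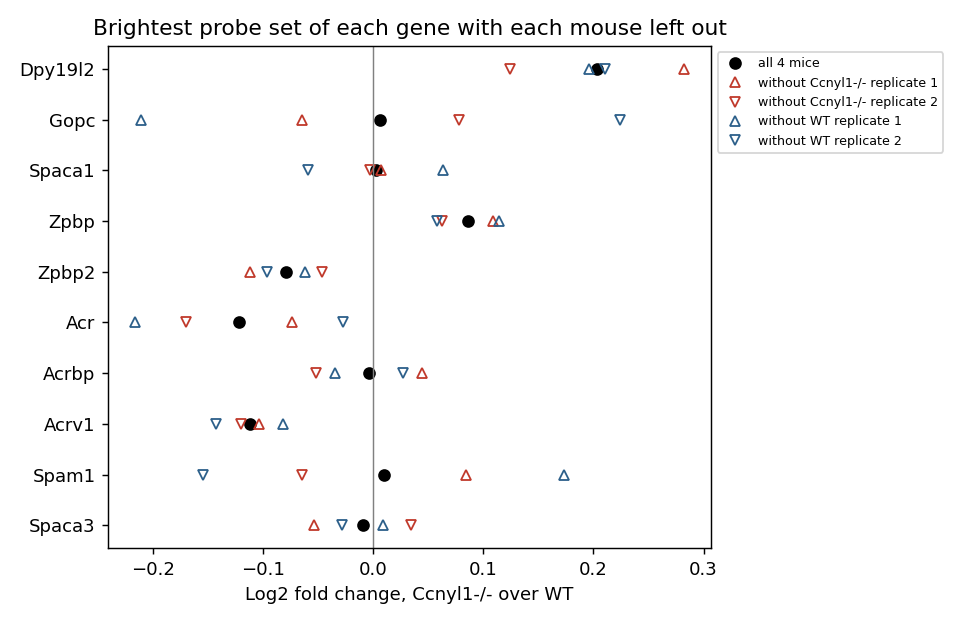
Log2 fold change of *Ccnyl1*-/- over WT (x axis) on the brightest probe set of each acrosome gene (rows), with all 4 mice (filled circles) and with each mouse left out in turn (triangles). *Dpy19l2* runs from 0.12 to 0.28, and *Gopc* and *Spam1* lie on both sides of 0.

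The other genes of the acrosome, taken from 5 lists, gave 0 called probe sets in each list. At an unadjusted p under 0.05 from limma there were 1 of 35 probe sets for the Golgi and vesicle genes of acrosome biogenesis, 2 of 11 for the acroplaxome and nuclear attachment, 1 of 22 for other proteins of the acrosomal matrix and membrane and their enzymes, 2 of 20 for acrosomal exocytosis and 0 of 13 for the paralogs of the set. Together these were 6 of 101 probe sets (5.94%), near the 6.05% of all probe sets. These 6 probe sets read *Spata16*, *Actl9*, *Spag4*, *Spaca4*, *Cplx2* and *Plcd4*. That of *Spata16*, 1431968_at, had 397 and 501 in *Ccnyl1*-/- and 303 and 304 in WT testes, a log2 fold change of 0.53 (adjusted p = 0.719 by limma), while the brighter probe set of the gene had -0.078 with overlapping genotypes. That of *Cplx2*, 1421477_at, was dim, with 77.9 and 16.1 in *Ccnyl1*-/- and 133 and 92.6 in WT testes, and gave -1.21. The brighter probe set of *Cplx2*, 1455672_s_at, had 0.11 with overlapping genotypes. The probe set of *Spag4* gave -0.16. By the brightest probe set, 7 of 13 Golgi and vesicle genes were positive and 6 negative, with a median of 0.021. *Vps54*, of a complex that brings vesicles back to the Golgi, had the highest log2 fold change (0.20), followed by *Vps13b* (0.16). *Vps54* was 0.028 without WT replicate 2, and another of its probe sets, 1449095_at, had -0.22 with no overlap between the genotypes. *Vps13b* was 0.087 without *Ccnyl1*-/- replicate 2. *Pick1*, a PDZ protein and partner of GOPC, had the lowest. It had 873 and 783 in *Ccnyl1*-/- and 1032 and 916 in WT testes, a log2 fold change of -0.23 with an interval from -0.49 to 0.029, which was -0.15 without WT replicate 1 or *Ccnyl1*-/- replicate 2. *Agfg1*, needed for the fusion of proacrosomal vesicles, had -0.11 on its brightest probe set. Its dimmer ones were all positive: 0.0049 on 1426923_at, 0.011 on 1426922_s_at, 0.023 on 1452238_at and 0.11 on 1434840_at.

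Of the 10 genes of the acroplaxome and of nuclear attachment, 2 were positive and 8 negative, with a median of -0.096. Bright genes in general lay below 0 in these arrays: outside the acrosome set, 789 of the 1117 genes whose mean signal reached 5000 were negative (70.6%, median -0.040). In this list 7 of the 10 genes were that bright, 6 of them negative, and the rest were dimmer. Whether its split is particular to it was not tested. The lowest was *Actl9*, an actin-like protein beneath the acrosome. On its brighter probe set it had 7034 and 7208 in *Ccnyl1*-/- and 8222 and 8700 in WT testes. The mutants were below both WT mice, by a log2 fold change of -0.25 with an interval from -0.37 to -0.12, and it did not pass (adjusted p = 0.645 from limma). Its other probe set, 1437038_x_at, had 6490 and 7469 in *Ccnyl1*-/- and 6822 and 7464 in WT testes, where the genotypes overlapped, with a log2 fold change of -0.035. *Sun5*, a SUN-domain protein of the spermatid nuclear envelope, had -0.18, and *Fam209*, whose protein binds DPY19L2, had 0.11, which was 0.040 without WT replicate 1. *Cylc2*, a cylicin of the perinuclear theca, had 0.23.

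Of 17 other genes of the acrosomal matrix, membrane and enzymes, 5 were positive and 12 negative (70.6%), with a median of -0.089. Over all 15268 genes tested, 7656 were negative. Of the 17 genes, 7 reached a mean signal of 5000, and 5 of these 7 were negative. The rest of the list was dimmer, so the share among bright genes is no measure for it, and its split was not tested. The lowest were *Zan*, which encodes zonadhesin (-0.21), and *Spaca4*, of the acrosomal membrane (-0.20). *Spaca4* had 3101 and 2855 in *Ccnyl1*-/- and 3625 and 3208 in WT testes, with no overlap (adjusted p = 0.816 from limma). Its log2 fold change was -0.11 without WT replicate 1. *Il4i1*, an amino acid oxidase, had the highest at 0.61 and was dim, with 83.6 and 105 in *Ccnyl1*-/- and 48.5 and 63.9 in WT testes. *Spaca7* followed with 0.063. Of 10 genes of acrosomal exocytosis, 6 were positive and 4 negative (median 0.035). *Plcd4*, a phospholipase C used in the acrosome reaction, had 2453 and 2760 in *Ccnyl1*-/- and 2863 and 3122 in WT testes, a log2 fold change of -0.20 with no overlap (adjusted p = 0.818 from limma), which was -0.11 without *Ccnyl1*-/- replicate 1. *Nsf*, the ATPase that takes SNARE complexes apart, had -0.15, but -0.034 without WT replicate 1 and 0.14 on another probe set, 1422455_s_at. The dim synaptotagmin genes *Syt8* and *Syt6* had 0.64 and 0.47, and *Syt6* had 0.034 without WT replicate 1.

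Of the paralogs of the set, 2 of the 8 tested genes were positive and 6 negative, with a median of -0.097. Those of *Dpy19l2* had 0.19 for *Dpy19l4*, -0.056 for *Dpy19l1* and -0.14 for the dim *Dpy19l3*. Dimmer probe sets had -0.24 for *Dpy19l1* (1456533_at), and 0.31 (1455468_at) and -0.91 (1437857_at) for *Dpy19l3*, each with no overlap. The sign of *Dpy19l3* thus differed between its probe sets. The hyaluronidase gene *Hyal5*, which like *Spam1* is used by sperm, had 5247 and 5279 in *Ccnyl1*-/- and 5281 and 4699 in WT testes, a log2 fold change of 0.079, and the dim *Hyal3* had -0.20. The lysozyme-like genes of *Spaca3*'s family, *Lyzl1*, *Lyzl4* and *Lyzl6*, had -0.14, -0.14 and -0.059. *Lyzl1* had 4728 and 4674 in *Ccnyl1*-/- and 5460 and 4891 in WT testes, both mutants below both WT mice. Without WT replicate 1 the log2 fold change of *Lyzl1* was -0.057. Without *Ccnyl1*-/- replicate 1 that of *Lyzl4* was -0.036 and that of *Dpy19l3* was -0.044. *Hyal2* was under the minimum signal, and *Hyal1* has no probe set of its own in the annotation used here.

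**Figure D5:**
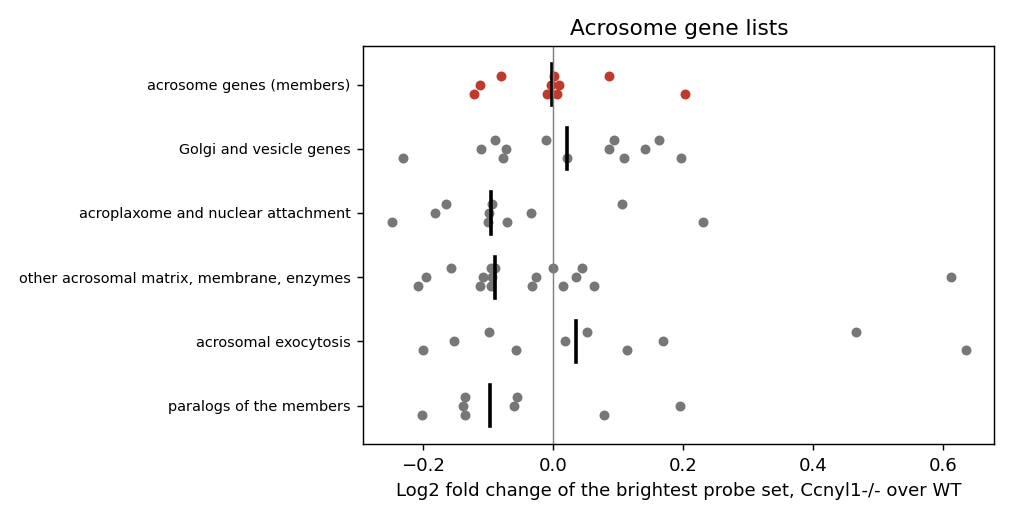
Log2 fold change of *Ccnyl1*-/- over WT (x axis) on the brightest tested probe set of each gene (points) in the acrosome set and 5 other acrosome lists (rows), with the median as a black line. The medians run from -0.097 for the paralogs to 0.035 for exocytosis.

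Germ cell markers of the testis were detected. Summed over the brightest probe set of each gene, 8 markers of round spermatids gave signals of 78252 and 77115 in *Ccnyl1*-/- and 80876 and 79901 in WT testes, and 10 of elongating spermatids gave 281222 and 273685 in *Ccnyl1*-/- and 278249 and 284908 in WT testes. The medians of their log2 fold changes were -0.030 and -0.053, but the elongating spermatid markers went both ways. On the brightest probe set the genotypes were fully apart for 6 of the 10 genes, against 35.9% of all probe sets. Of the 23 probe sets 7 had an unadjusted p under 0.05 in limma (6.05% of all probe sets), with 0 called. These read *Hspb9* (-0.18), *Odf1* (-0.14), *Odf2* (-0.12 and -0.16), *Prm1* (0.094 and 0.13) and *Smcp* (0.18), among them genes of the sperm tail and chromatin. Other probe sets of *Prm1* (-0.050) and *Odf1* (0.069 and -0.12) had overlapping genotypes, and those of *Odf2* had -0.057, -0.16 and 0.27. For round spermatids 1 of 10 probe sets had an unadjusted p under 0.05 in limma. The medians were 0.050 for spermatogonia, 0.043 for spermatocytes, 0.044 for Sertoli cells and 0.10 for peritubular myoid cells. Leydig cell markers had 0.43 over 5 genes, macrophage markers -0.20 over 9, and those of epididymis 0.45 and blood -0.11 over 2 each. No marker probe set was called. The Leydig cell sum was 9293 and 5220 in *Ccnyl1*-/- and 7149 and 3935 in WT testes, and the macrophage sum 3220 and 2874 in *Ccnyl1*-/- and 4365 and 3334 in WT testes. Of the 4 measured epididymis markers, 2 were under the minimum signal. The part of these shifts in the values of the acrosome genes was not tested. Log2 signals of the arrays correlated at 0.977 to 0.980 over all pairs.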

How the data were processed

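The authors deposited 1 table of MAS 5.0 signals, intensities on a linear scale, for 45101 probe sets on 4 arrays, 1 array per mouse and 2 mice per genotype. Per the methods, MAS 5.0 ran with its default settings and global scaling, which multiplies each array by 1 factor. The mean without the outer 2% at each end was 500.0 on every array, where the methods give a target of 100. Each array is processed by itself, so probe effects remain and signals of different probe sets were not set against each other. Dim signals vary widely on a log scale. Groups and replicate numbers came from the sample titles, which call the mice biological replicates. 0 columns of other samples were present.

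The 64 Affymetrix controls were left out. The platform annotation named the genes of the probe sets: 34945 had 1 gene, 932 had several and 9160 had none. log2(signal + 16) of the 32438 probe sets with a mean signal of at least 32 was fitted with the genotype alone in limma 3.58.1 under R 4.3.3 (lmFit and eBayes, whose prior variance followed the mean log2 signal). p-values were adjusted over all of them by Benjamini-Hochberg. Fold changes on this scale understate those of dim probe sets, and the 95% intervals use limma's moderated spread. The fit was checked on simulated data. Every member probe set is given. In each of 4 other acrosome lists the 2 highest and the 2 lowest genes by the brightest tested probe set were named, with every tested gene of the paralog list, and 10 cell type lists were used as a check of the tissue. The members and lists were chosen with earlier results of these data known. A value named beyond this rule, such as a second probe set of *Actl9* or those of *Spata16*, *Cplx2* and *Spag4*, and the line at a signal of 5000 for bright genes, was chosen after it was seen. Promoter windows came from RefSeq, and no coordinates of array probes were used. Alternatives were no offset, an offset of 32, no minimum, a minimum of 100, eBayes without trend or robust, arrays scaled to one median or quantile normalized, the replicate number as a block, the methods' t-test, other rules for the probe set of a gene and leaving out each mouse. A rescaling of the signals to a trimmed mean of 100, and all alternatives for genes outside the set, were added after the data were seen.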

Additional observations from a re-analysis of the deposited data

How the results depend on the processing

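The count of called acrosome probe sets was 0 under all 15 settings at which it was recomputed. The 4 that leave out a mouse have 1 array in a genotype, assumed to vary like the other genotype, so that their lack of calls says nothing about stability. With the replicate number as a block it was 0 too. Taken over all 32438 probe sets, samples with the same number did not deviate together (correlation 0.014). The Leydig cell sums did, with 9293 and 7149 in replicate 1 of *Ccnyl1*-/- and WT and 5220 and 3935 in replicate 2. Macrophage sums were also higher in replicate 1 (3220 and 4365) than in replicate 2 (2874 and 3334). The same held for markers of epididymis, spermatogonia, spermatocytes, round spermatids and peritubular myoid cells. It did not hold for elongating spermatids, Sertoli cells and blood. What else samples of the same number share was not tested. The block moved the calls over all probe sets from 4 to 14. Over all probe sets there were 0 calls with eBayes without trend and 0 with the methods' t-test, and 6 to 55 without 1 mouse. Arrays scaled to one median shifted all probe sets by a median of -0.072.

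The median log2 fold change of the acrosome set, -0.00078, was 0.015 with quantile normalization, -0.079 with arrays scaled to one median, 0.0059 with the mean over all probe sets of a gene, -0.0096 without probe sets of a suffix such as _x_at, and -0.028 to -0.013 without 1 mouse. With arrays scaled to one median, the median was -0.17 for acroplaxome genes, -0.042 for exocytosis, -0.057 for Golgi and vesicle genes, -0.17 for matrix, membrane and enzymes and -0.17 for paralogs. For matrix, membrane and enzymes it was -0.059 with quantile normalization and -0.032 with the mean of probe sets. Without such probe sets it was -0.056 for exocytosis, 0.086 for Golgi and vesicle genes and -0.061 for matrix, membrane and enzymes. Without 1 mouse it ran from -0.035 to 0.12 for exocytosis, from -0.0033 to 0.087 for Golgi and vesicle genes, from -0.059 to -0.023 for matrix, membrane and enzymes, and from -0.14 to -0.0042 for paralogs. The cause was not tested.

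Of 221 values of acrosome probe sets under the alternatives, 202 kept their sign. This count overstates stability. Settings that change only the minimum signal, the eBayes option, the block or the test leave the fold change as it is, so no sign could turn. All signs that turned did so with quantile normalization, with arrays scaled to one median or without 1 mouse. With quantile normalization the sign turned for *Acrbp* (1451333_a_at, 0.018), *Gopc* (1421191_s_at, -0.027) and *Spaca3* (1429970_at, 0.014). With arrays scaled to one median it turned for *Gopc* (1421191_s_at, -0.069), *Spaca1* (-0.076) and *Spam1* (-0.068). Outside the set, and so not among the 221 values, the sign of *Spaca7* turned with that scaling (-0.015). Without 1 mouse the ranges of those that turned were -0.095 to 0.051 and -0.052 to 0.045 for *Acrbp*, -0.21 to 0.22 for *Gopc*, -0.059 to 0.063 for *Spaca1*, -0.054 to 0.034 and -0.032 to 0.48 for *Spaca3*, and -0.15 to 0.17 for *Spam1*. For the other genes they were -0.0018 to 0.46 for *Cylc2*, -0.16 to 0.049 for *Dpy19l1*, -0.92 to 0.52 for *Hyal3*, -0.0049 to 0.16 for *Hyal5*, -0.19 to 0.069 for *Lyzl6*, -0.041 to 0.17 for *Spaca7* and -0.40 to 0.038 for *Sun5*. A signal near the minimum limits the dim probe sets of *Zpbp*, *Zpbp2* and *Spaca3* most.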
